A study of Rattus norvegicus with 120 samples.

Results

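The genes described are 38 genes of glucose metabolism and transport, chosen by name: enzymes of gluconeogenesis, glycolysis, glycogen and the pentose phosphate pathway, pyruvate dehydrogenase and its kinases, fructokinase, and the sugar carriers. A gene was read through probe sets that mapped to it alone, and where several did, through the one with the highest mean over all 120 arrays. Of the 38 genes, 36 had such a probe set, among 14217 genes of the array. G6pc1 (glucose-6-phosphatase) and Pkm (muscle pyruvate kinase) were reached only by probe sets shared with other genes and were left out. Hk2 and Aldoc lay among the dimmest 25% of genes, with mean log2 levels of 5.22 and 5.20, and were not tested. The remaining 34 entered the tests among 10663 genes in all.

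The study's title asks for markers that detect kidney damage by calcineurin inhibitors early. Kidney RNA of 120 male Sprague-Dawley rats, 5 to 7 weeks old before treatment, was measured on Affymetrix arrays, 1 array per rat. Rats received olive oil (vehicle), cyclosporine (CsA) at 2.5 or 25 mg/kg, tacrolimus (FK506) at 0.6 or 6 mg/kg, or rapamycin (Rapa) at 1 or 10 mg/kg, injected into the peritoneum daily for 1, 7, 14 or 28 days, and were killed 24 hours later. The 28 groups were of 4 rats unless named here: FK506 6 mg/kg had 3 rats at day 14, and at day 28 there were 5 in the FK506 6 mg/kg, CsA 2.5 mg/kg and vehicle groups and 6 in the FK506 0.6 mg/kg, Rapa 1 mg/kg and Rapa 10 mg/kg groups. CsA and FK506 block the phosphatase calcineurin, and Rapa blocks the kinase mTOR. The doses of the 3 drugs differ in mg/kg. Different rats were used on each day, and p-values measure the spread between rats.

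The kidney both uses and makes glucose. Cells of the proximal tubule take filtered glucose back through the sodium-coupled carriers Slc5a2 (SGLT2) and Slc5a1 (SGLT1) and pass it to the blood through Slc2a2 (GLUT2). The same cells make glucose from lactate and glutamine with Pc, Pck1 and Fbp1, and take up fructose, which Khk phosphorylates. Glycolysis is more active in the distal nephron. In whole kidney, fewer cells of a type and less RNA per cell cannot be told apart.

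From the members that hold the core ACGTG, the promoters of 3 described below are printed. This core occurs in sites of hypoxia-inducible factors and, as CACGTG, in E-boxes bound by factors such as ChREBP, both known regulators of glucose genes. Each promoter is the 250 bases before the gene start from RefSeq (build GRCr8), read 5′ to 3′ along the gene, with ACGTG on either strand in capitals. At day 28 Slc5a1 was called lower under Rapa, Ldha higher under the calcineurin inhibitors and Slc2a1 higher under Rapa. All of these calls but that of Slc5a1 under Rapa 10 mg/kg were lost when single rats were left out, as given below.
Slc5a1 (chr14:81843085-81843334, minus strand): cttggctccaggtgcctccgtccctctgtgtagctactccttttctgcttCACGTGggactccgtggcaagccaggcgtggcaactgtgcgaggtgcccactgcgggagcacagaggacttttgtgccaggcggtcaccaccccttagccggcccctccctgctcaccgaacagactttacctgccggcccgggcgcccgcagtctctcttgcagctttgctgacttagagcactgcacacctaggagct
Ldha (chr1:106507842-106508091, plus strand): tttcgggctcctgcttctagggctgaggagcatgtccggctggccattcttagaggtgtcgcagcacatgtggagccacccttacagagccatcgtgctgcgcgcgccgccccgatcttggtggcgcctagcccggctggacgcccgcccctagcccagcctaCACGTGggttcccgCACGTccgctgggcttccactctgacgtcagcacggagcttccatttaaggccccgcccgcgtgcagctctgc
Slc2a1 (chr5:138002272-138002521, plus strand): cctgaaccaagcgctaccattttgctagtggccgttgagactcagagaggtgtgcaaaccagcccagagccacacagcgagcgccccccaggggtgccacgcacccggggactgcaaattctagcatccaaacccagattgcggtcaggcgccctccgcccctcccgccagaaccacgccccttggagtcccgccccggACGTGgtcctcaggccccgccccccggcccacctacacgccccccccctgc
In Slc5a1 a CACGTG begins 200 bases before the start. In Ldha a CACGTG begins at 87 and a further ACGTG at 73, and in Slc2a1 an ACGTG begins at 51. RefSeq promoters matched 36 of the 38 members, all but Pc and Pgk1. ACGTG was in 11 of these 36 windows and in 16.6% of 33469 windows of the same length. The 11 were Slc2a1, Slc5a1, Pfkm, Aldoc, Pgam1, Ldha, Pdhb, Pdk2, Pgm1, Pygb and Pygl. CACGTG reads the same on both strands and contains ACGTG; it was in 4 of the 36 (Slc5a1, Ldha, Pdhb and Pdk2) and in 5.59% of all. GTTAAT, the core bound by HNF1 factors, was searched on both strands as well and was in 3 of the 36 (G6pc1, Pck1 and Pdha1) and in 6.45% of all. A match describes the letters only.

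The lowest median intensity of an array was 51.7, the next 63.5 and the highest 85.8. The array of CsA 25 mg/kg at day 28, replicate 3, held all 5273 zeros of the table, 17% of its values, with none in the 36 genes. It correlated at a mean of 0.88 with its own group, where each other array reached 0.945 or more, and no arrays were identical. Markers of the proximal tubule were present: all 15 on the array passed the limit for dim genes. The log2 level of the hybridization controls averaged 9.42 ± 1.00 (SD, n = 5) in FK506 6 mg/kg and 9.94 ± 1.17 (SD, n = 6) in Rapa 1 mg/kg at day 28, and 10.62 to 11.2 in the other groups. The Gapdh 3-prime to 5-prime log2 ratio, a measure of RNA quality, was 0.33, 0.72, 0.40 and 0.39 in vehicle at days 1, 7, 14 and 28.

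Levels are log2(intensity + 16) after quantile normalization, and changes are differences of log2 levels. Folds are taken from these changes, so they are ratios of intensity + 16. For dim genes such ratios are less extreme than ratios of intensity. Called means an adjusted p under 0.05 from limma, with Benjamini-Hochberg adjustment over all 10663 genes, and the shares of all genes given beside counts are of calls in either direction. Against vehicle of the same day, 24 of the 34 members were called in at least 1 of 24 comparisons, in 69 calls, 20 higher and 49 lower. The largest called change was -1.19, of Slc5a1 under Rapa 10 mg/kg at day 14. At day 28, CsA 25 mg/kg had 3 members higher and 10 lower of 34 (38.2%), beside 21.1% of all genes called. Rapa 10 mg/kg had 2 higher and 10 lower (35.3%), beside 15.8%. FK506 6 mg/kg had 2 higher and 4 lower (17.6%), a share near its background of 16%. Rapa 1 mg/kg had 1 higher and 7 lower (23.5%), beside 9.79%, and FK506 0.6 mg/kg had 1 lower, beside 4.34%. The median change of the 34 members was -0.14 for CsA 25 mg/kg, -0.08 for FK506 6 mg/kg and -0.13 for Rapa 10 mg/kg, and that of all genes 0.01, 0.01 and -0.01. Without the array with zeros, CsA 25 mg/kg had 2 members higher and 10 lower, 10 of these 12 among the 13 above, beside 15.8% of all genes. Slc2a2, Tpi1 and Pgm1 were then not called, and Eno1 at -0.26 (adjusted p = 0.0178) and Tkt at -0.24 (adjusted p = 0.0451) were. The CsA count was 5 without CsA 25 mg/kg replicate 4 and 8 without vehicle replicate 1, and the Rapa 1 mg/kg count was 5 without vehicle replicate 2. These comparisons share their vehicle rats.

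**Figure D1:**
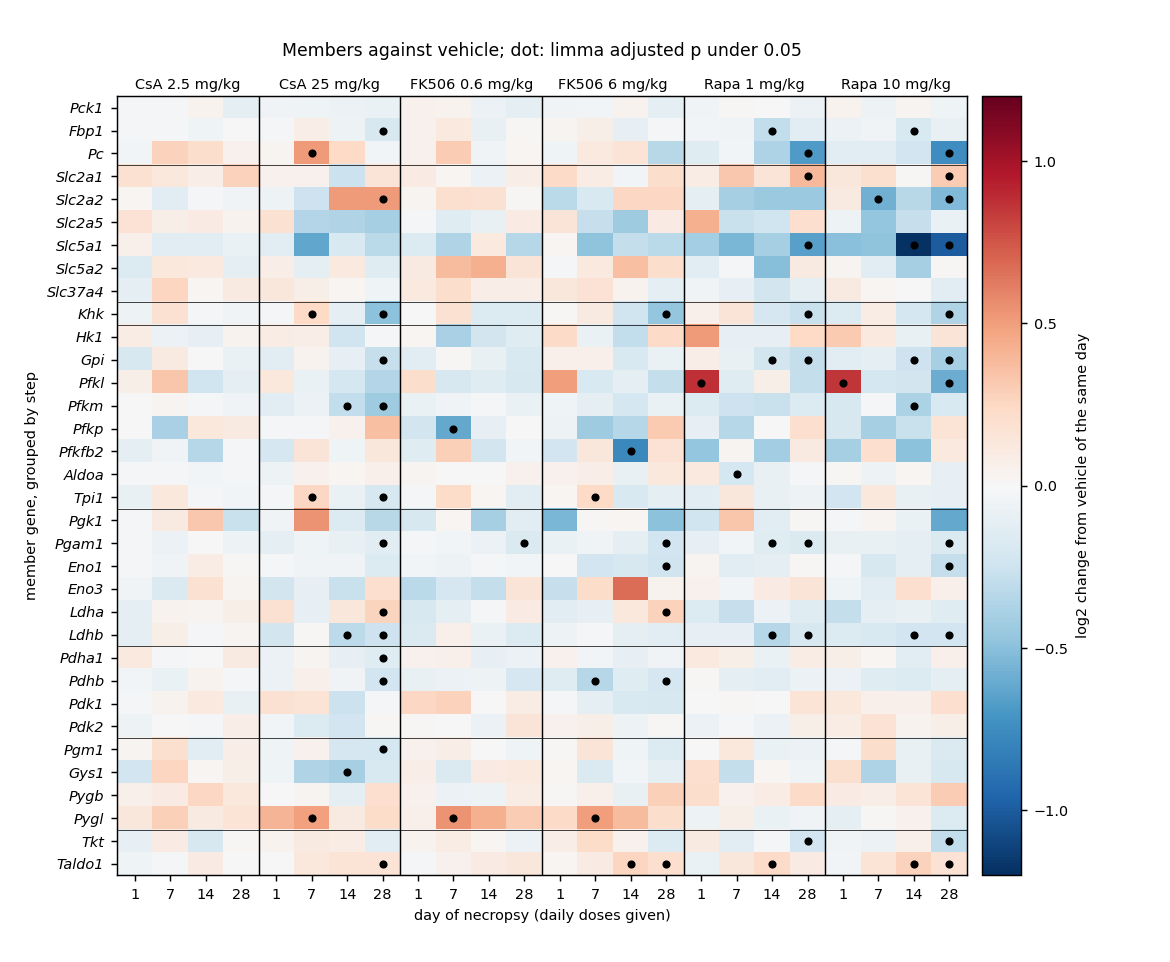
Log2 change of each of the 34 tested genes (rows, grouped by step) from vehicle of the same day in the 24 comparisons (columns). Colour gives the change, red higher and blue lower, and black dots mark the 69 calls, of which 51 are at the higher doses.

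Before day 28 fewer members were called. At day 1 there was none for CsA 25 mg/kg (0.675% of all genes called, and 3 members at an unadjusted p under 0.05) and none for FK506 6 mg/kg (0.0281%, and 1 member). Pfkl was higher at day 1 under Rapa 10 mg/kg (2.81% of all genes) and Rapa 1 mg/kg (3.09%), and was the only member called on that day. At day 7, CsA 25 mg/kg had 4 members higher (4.01%) and FK506 6 mg/kg 2 higher and 1 lower (3.17%). FK506 0.6 mg/kg had 1 higher and 1 lower (1.93%), Rapa 10 mg/kg 1 lower (7.32%) and Rapa 1 mg/kg 1 lower (4.21%). At day 14, CsA 25 mg/kg had 3 lower (7.89%), FK506 6 mg/kg 1 higher and 1 lower (2.69%), Rapa 10 mg/kg 1 higher and 5 lower (10.4%) and Rapa 1 mg/kg 1 higher and 4 lower (9.07%). Without vehicle replicate 2 the day 14 counts for both Rapa doses were 3. CsA 2.5 mg/kg had no member called on any day, with 2, 8, 1 and 3 at an unadjusted limma p under 0.05 on days 1, 7, 14 and 28 and 0%, 0%, 0.0656% and 0% of all genes called. FK506 0.6 mg/kg had none at day 1 (0%, 1 member unadjusted) and day 14 (0.872%, 2 members). Of the calls at day 7, none was kept under every alternative and every rat left out.

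Among the sugar carriers, Slc5a1, Slc2a2 and Slc2a1 were called against vehicle and the others were not. Slc5a1 (SGLT1, probe set 1369759_at), the high-affinity sodium-glucose carrier of the late proximal tubule, fell under Rapa. Slc5a2 (SGLT2), the bulk carrier of the early proximal tubule, moved by -0.51 to 0.43 over the 24 comparisons, Slc2a5 (GLUT5, a fructose carrier) by -0.46 to 0.43, and Slc37a4, which carries glucose-6-phosphate into the endoplasmic reticulum, by -0.22 to 0.26, with no call.

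Slc5a1 in vehicle at day 28 read 7.13, 6.92, 7.00, 7.28 and 7.08. It ran from 5.89 to 6.49 (median 6.03, n = 6) under Rapa 10 mg/kg and from 5.90 to 6.77 (median 6.53, n = 6) under Rapa 1 mg/kg. Every rat of both Rapa groups lay below every vehicle rat. At 10 mg/kg the fold against vehicle was 0.5 (SE of the log2 change 0.19, adjusted p = 3.33e-05), and at 1 mg/kg the change was -0.65 (SE 0.19, adjusted p = 0.0129). The latter call was lost without Rapa 1 mg/kg replicate 4 (-0.54, adjusted p = 0.065), and with the hybridization control level as a covariate (-0.59, adjusted p = 0.0694). At day 14 vehicle read 6.93, 7.58, 7.00 and 7.22 and Rapa 10 mg/kg 6.46, 6.46, 5.46 and 5.58, with no overlap. The change was -1.19 (SE 0.22, adjusted p = 5.12e-05), and both changes under 10 mg/kg were kept in every setting run. At days 1 and 7 the values under Rapa 10 mg/kg were -0.50 (SE 0.22, adjusted p = 0.237) and -0.48 (SE 0.22, adjusted p = 0.174), not called. The day 7 values were not particular to Rapa. Means on that day were 7.05 in vehicle, 6.43 under CsA 25 mg/kg and 6.57 under FK506 6 mg/kg. They were 6.57 under Rapa 10 mg/kg and 6.50 under Rapa 1 mg/kg, and no group was called. Vehicle means lay between 7.05 and 7.19 over the 4 days. Slc5a1 was among the dimmest of the tested members, with a mean of 6.80 over all arrays. CsA 25 mg/kg read 6.69, 7.05, 6.66 and 6.61 and FK506 6 mg/kg 6.20, 6.79, 7.28, 6.56 and 6.95 at day 28. Both overlapped vehicle, at -0.32 (SE 0.21, adjusted p = 0.273) and -0.32 (SE 0.19, adjusted p = 0.275).

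Slc2a2 (GLUT2, 1387228_at), the carrier of the blood side of the tubule, moved in opposite directions under Rapa and CsA. Vehicle at day 28 read 10.80, 10.65, 10.82, 10.78 and 10.74. Rapa 10 mg/kg ran from 9.98 to 10.62 (median 10.20, n = 6) and CsA 25 mg/kg read 11.00, 11.65, 11.48 and 10.93. The Rapa rats lay below and the CsA rats above all vehicle rats. The changes were -0.53 (SE 0.16, adjusted p = 0.013) and 0.51 (SE 0.18, adjusted p = 0.0292). The first was kept in every setting run. The rise under CsA was lost without vehicle replicate 2 (0.48, adjusted p = 0.0621), CsA 25 mg/kg replicate 2 (0.38, adjusted p = 0.169) or CsA 25 mg/kg replicate 3 (0.44, adjusted p = 0.116), the last being the array with zeros. FK506 6 mg/kg ran from 10.53 to 11.37, across the vehicle range, at 0.25 (SE 0.17, adjusted p = 0.338). At day 7 Rapa 10 mg/kg read 10.14, 10.00, 10.66 and 10.49 and vehicle 10.94, 10.70, 10.99 and 11.00, with no overlap, a change of -0.58 (SE 0.19, adjusted p = 0.0417). That call was lost without any 1 of vehicle replicates 1, 3 or 4 or Rapa 10 mg/kg replicates 1 or 2, with changes from -0.69 to -0.47 over the rats left out in turn.

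Slc2a1 (GLUT1, 1370848_at), a carrier found in most cells, was higher at day 28 under Rapa. Vehicle read 8.84, 8.21, 8.98, 8.49 and 8.33, and the groups ran from 8.65 to 8.98 (median 8.91, n = 6) under 10 mg/kg and from 8.72 to 9.34 (median 8.98, n = 6) under 1 mg/kg. The vehicle rats were the more scattered, and both groups overlapped them. The changes were 0.30 (SE 0.10, adjusted p = 0.0359) and 0.39 (SE 0.10, adjusted p = 0.00807), and the vehicle mean, 8.57, was the lowest of the 28 groups. The call at 1 mg/kg was lost without vehicle replicate 2 (0.30, adjusted p = 0.0786) and with the hybridization control level as a covariate (0.28, adjusted p = 0.126). The call at 10 mg/kg was lost without any 1 of vehicle replicates 2, 4 or 5 or Rapa 10 mg/kg replicates 1, 2 or 5, with changes from 0.21 to 0.40 over the rats left out in turn.

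**Figure D2:**
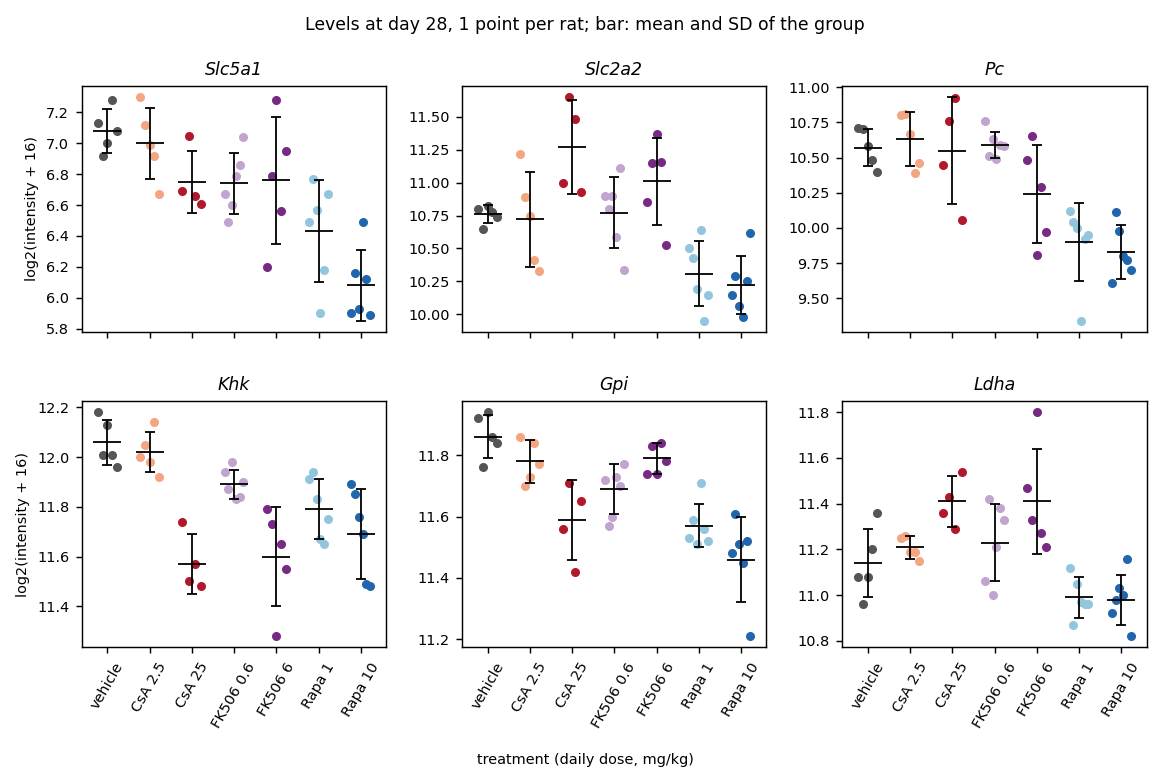
Level of 6 members at day 28, log2(intensity + 16) on the vertical axis, by treatment and daily dose in mg/kg on the horizontal axis. Each point is 1 rat, and bars give the group mean and SD. In Slc5a1, Pc, Khk and Gpi every rat given Rapa lies below every vehicle rat.

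Of the gluconeogenic genes, Pc (pyruvate carboxylase, 1386917_at), which makes oxaloacetate from pyruvate, fell under both Rapa doses. Pc in vehicle at day 28 read 10.71, 10.70, 10.58, 10.48 and 10.40. It ran from 9.61 to 10.11 (median 9.79, n = 6) under Rapa 10 mg/kg and from 9.34 to 10.12 (median 9.97, n = 6) under Rapa 1 mg/kg. All 12 treated rats lay below all vehicle rats. The changes were -0.75 (SE 0.12, adjusted p = 1.47e-06), a fold of 0.596, and -0.68 (SE 0.12, adjusted p = 2.57e-05), both kept in every setting run. Under CsA 25 mg/kg at day 7 Pc was higher, with 10.53, 10.99, 10.80 and 10.87 against 10.27, 10.43, 10.15 and 10.29 in vehicle and no overlap. That change was 0.51 (SE 0.14, adjusted p = 0.0169), lost without vehicle replicate 3 (0.47, adjusted p = 0.0694), CsA 25 mg/kg replicate 2 (0.45, adjusted p = 0.0848) or CsA 25 mg/kg replicate 4 (0.49, adjusted p = 0.0604). With the Gapdh ratio as a covariate it was 0.47, adjusted p = 0.0639, and that ratio was 0.72 in vehicle and 0.43 in CsA 25 mg/kg at day 7. The vehicle mean of Pc on that day, 10.29, was the lowest of the vehicle groups, whose highest was 10.58. Means on that day were 10.57 under CsA 2.5 mg/kg, 10.58 under FK506 0.6 mg/kg and 10.41 under FK506 6 mg/kg. They were 10.25 under Rapa 1 mg/kg and 10.14 under Rapa 10 mg/kg, and none of these was called.

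Fbp1 (fructose-1,6-bisphosphatase, 1368077_at), which acts late in glucose synthesis, fell under Rapa at day 14. Vehicle read 13.50, 13.52, 13.48 and 13.42, Rapa 1 mg/kg 13.21, 13.28, 13.24 and 13.01 and Rapa 10 mg/kg 13.18, 13.38, 13.32 and 13.36. Both groups lay below vehicle without overlap. The changes were -0.30 (SE 0.06, adjusted p = 0.000158) and -0.18 (SE 0.06, adjusted p = 0.0294). The first was kept in every setting run, and the second was lost without any 1 of vehicle replicates 1, 2 or 3 or Rapa 10 mg/kg replicates 1 or 3, with changes from -0.20 to -0.13 over the rats left out in turn. At day 28 CsA 25 mg/kg read 13.27, 13.23, 13.40 and 12.94 against 13.42, 13.46, 13.48, 13.37 and 13.30 in vehicle, with overlap. The change was -0.19 (SE 0.05, adjusted p = 0.00475), lost without CsA 25 mg/kg replicate 4 (-0.10, adjusted p = 0.204). Pck1, which turns oxaloacetate into phosphoenolpyruvate, had no call and moved by -0.12 to 0.05.

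Khk (ketohexokinase, 1387375_at), which commits fructose to breakdown, fell under all 3 drugs at day 28. Vehicle read 12.18, 12.01, 12.13, 12.01 and 11.96. CsA 25 mg/kg read 11.74, 11.50, 11.57 and 11.48, FK506 6 mg/kg 11.79, 11.73, 11.28, 11.65 and 11.55, and Rapa 10 mg/kg ran from 11.48 to 11.89 (median 11.72, n = 6). Each treated rat lay below each vehicle rat. The changes were -0.49 (SE 0.07, adjusted p = 2.46e-07), -0.46 (SE 0.07, adjusted p = 4.53e-07) and -0.36 (SE 0.07, adjusted p = 1.85e-05). Rapa 1 mg/kg, from 11.65 to 11.94 (median 11.79, n = 6), gave -0.27 (SE 0.07, adjusted p = 0.00365). All 4 calls were kept in every setting run. At day 7 Khk was higher under CsA 25 mg/kg, at 0.24 (SE 0.08, adjusted p = 0.0481), a call lost without any 1 of vehicle replicates 2, 3 or 4 or CsA 25 mg/kg replicates 1, 2, 3 or 4, with changes from 0.21 to 0.27 over the rats left out in turn. The vehicle mean of Khk on that day, 11.82, was the lowest of the vehicle groups, whose highest was 12.06.

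In upper glycolysis, Gpi (glucose-6-phosphate isomerase, 1371392_at) fell under Rapa and under CsA 25 mg/kg. Vehicle at day 28 read 11.92, 11.76, 11.94, 11.86 and 11.84. Rapa 10 mg/kg ran from 11.21 to 11.61 (median 11.49, n = 6), Rapa 1 mg/kg from 11.51 to 11.71 (median 11.55, n = 6), and CsA 25 mg/kg read 11.56, 11.71, 11.42 and 11.65. All of these rats lay below all vehicle rats. The changes were -0.40 (SE 0.06, adjusted p = 3.73e-07), -0.29 (SE 0.06, adjusted p = 0.00044) and -0.28 (SE 0.07, adjusted p = 0.000947), each kept in every setting run. At day 14 the changes were -0.25 (SE 0.07, adjusted p = 0.00917) under Rapa 10 mg/kg and -0.22 (SE 0.07, adjusted p = 0.0282) under Rapa 1 mg/kg, with overlap. The first was lost without vehicle replicate 2 (-0.20, adjusted p = 0.079) or Rapa 10 mg/kg replicate 1 (-0.20, adjusted p = 0.073). The second was lost without any 1 of vehicle replicates 1 or 2 or Rapa 1 mg/kg replicates 1 or 2, with changes from -0.27 to -0.17 over the rats left out in turn.

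Pfkl (1367743_at), the liver-type subunit of phosphofructokinase, was high at day 1 under both Rapa doses and low at day 28 under Rapa 10 mg/kg. At day 1 vehicle read 7.86, 8.12, 7.87 and 7.77, Rapa 10 mg/kg 8.54, 8.87, 8.71 and 8.95 and Rapa 1 mg/kg 9.05, 8.82, 8.65 and 8.64, with no overlap. The changes were 0.86 (SE 0.16, adjusted p = 0.000286) and 0.88 (SE 0.16, adjusted p = 0.00018), and the vehicle mean, 7.91, was the lowest of the 28 groups. The Gapdh ratio moved beside this result, at 0.33 ± 0.04 (SD, n = 4) in vehicle, 0.74 ± 0.17 (SD, n = 4) in Rapa 10 mg/kg and 0.67 ± 0.17 (SD, n = 4) in Rapa 1 mg/kg. With it as a covariate the changes were 0.56, adjusted p = 0.216, and 0.63, adjusted p = 0.0663. Under FK506 6 mg/kg Pfkl was also above vehicle at day 1, at 0.50, not called. At day 28 vehicle read 8.65, 8.60, 8.66, 8.87 and 8.85 and Rapa 10 mg/kg ran from 7.76 to 8.60 (median 8.02, n = 6), reaching vehicle in its highest rat. That change was -0.60 (SE 0.14, adjusted p = 0.000795) and was kept in every setting run. Rapa 1 mg/kg ran from 7.89 to 8.62 (median 8.53, n = 6) and was not called, at -0.29 (SE 0.14, adjusted p = 0.186).

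Pfkm (1367864_at), the muscle-type subunit, fell under CsA and Rapa. At day 28 vehicle read 9.01, 9.03, 8.96, 8.97 and 9.09 and CsA 25 mg/kg 8.81, 8.34, 8.59 and 8.58, without overlap, a change of -0.43 (SE 0.09, adjusted p = 0.000219) kept in every setting run. At day 14 vehicle read 9.20, 9.33, 9.15 and 9.07, Rapa 10 mg/kg 8.86, 8.75, 8.67 and 8.94 and CsA 25 mg/kg 8.97, 8.99, 8.75 and 8.82, again without overlap. The changes were -0.38 (SE 0.10, adjusted p = 0.00434) and -0.30 (SE 0.10, adjusted p = 0.0324), with the vehicle mean, 9.19, the highest of the 28 groups, and the latter was lost without any 1 of vehicle replicates 1 or 2 or CsA 25 mg/kg replicates 3 or 4, with changes from -0.34 to -0.26 over the rats left out in turn. Of the other Pfkm probe sets, 1386961_at changed by -0.05, -0.28 and -0.18 and 1384632_at by -0.08, -0.50 and 0.54 in CsA at day 28, Rapa at day 14 and CsA at day 14, and neither was called.

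The other genes of this stage gave calls that single rats decided. Tpi1 (triose phosphate isomerase) read 12.41, 12.17, 12.13 and 11.92 in vehicle at day 7, 12.38, 12.40, 12.46 and 12.38 under CsA 25 mg/kg and 12.40, 12.38, 12.50 and 12.32 under FK506 6 mg/kg, with overlap. The changes were 0.25 (SE 0.08, adjusted p = 0.0359) and 0.24 (SE 0.08, adjusted p = 0.0493). The vehicle mean, 12.16, was the lowest of the 28 groups, and the Gapdh ratio was 0.72 in vehicle, 0.43 in CsA 25 mg/kg and 0.44 in FK506 6 mg/kg. With that ratio as a covariate the changes were 0.17, adjusted p = 0.249, and 0.17, adjusted p = 0.273. The first was lost without any 1 of vehicle replicates 3 or 4 or CsA 25 mg/kg replicates 1, 2, 3 or 4, with changes from 0.17 to 0.34 over the rats left out in turn, and the second without any 1 of vehicle replicates 2, 3 or 4 or FK506 6 mg/kg replicates 1, 2, 3 or 4, with changes from 0.17 to 0.33 over the rats left out in turn. At day 28 Tpi1 fell by 0.19 (SE 0.07, adjusted p = 0.0451) under CsA 25 mg/kg, lost without any 1 of vehicle replicates 1, 4 or 5 or CsA 25 mg/kg replicates 1, 2, 3 or 4, with changes from -0.22 to -0.15 over the rats left out in turn. Pfkp, the platelet-type subunit of phosphofructokinase, read 8.95, 9.19, 8.88 and 8.56 under FK506 0.6 mg/kg at day 7 and 9.25, 9.88, 9.33 and 9.56 in vehicle, without overlap. The vehicle mean, 9.50, was the highest of the 28 groups. The change was -0.61 (SE 0.15, adjusted p = 0.0162), lost without vehicle replicate 2 (-0.48, adjusted p = 0.0813), vehicle replicate 4 (-0.59, adjusted p = 0.0512) or FK506 0.6 mg/kg replicate 4 (-0.50, adjusted p = 0.094).

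Pfkfb2, whose product makes and breaks the activator of phosphofructokinase, read 5.53, 5.93 and 6.23 under FK506 6 mg/kg at day 14 and 6.59, 7.16, 6.13 and 6.80 in vehicle, with overlap. The vehicle mean, 6.67, was the highest of the 28 groups. The change was -0.77 (SE 0.20, adjusted p = 0.0194), lost without vehicle replicate 2 (-0.61, adjusted p = 0.116), vehicle replicate 4 (-0.73, adjusted p = 0.0527) or FK506 6 mg/kg replicate 1 (-0.59, adjusted p = 0.197). Another Pfkfb2 probe set, 1388044_at, changed by 0.24 (adjusted p = 0.668), the opposite sign. Aldoa (aldolase A) fell by 0.21 (SE 0.06, adjusted p = 0.0358) under Rapa 1 mg/kg at day 7, lost without any 1 of vehicle replicates 1 or 2 or Rapa 1 mg/kg replicates 1, 2 or 3, with changes from -0.23 to -0.19 over the rats left out in turn. It was also lost with the Gapdh ratio as a covariate (-0.18, adjusted p = 0.145), a ratio of 0.72 in vehicle and 0.42 in Rapa 1 mg/kg. Hk1 (hexokinase 1) had no call and moved by -0.39 to 0.51.

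In lower glycolysis, Pgam1 (phosphoglycerate mutase, 1386864_at) was lower in 6 comparisons. Its vehicle means lay between 12.71 and 12.74 over the 4 days, and that of day 28, 12.74, was the highest of the 28 groups. At day 28 vehicle read 12.74, 12.75, 12.68, 12.74 and 12.80, FK506 6 mg/kg 12.40, 12.60, 12.68, 12.52 and 12.38, CsA 25 mg/kg 12.61, 12.62, 12.66 and 12.52, and Rapa 10 mg/kg ran from 12.53 to 12.60 (median 12.57, n = 6). In 1 rat FK506 6 mg/kg reached the vehicle range, and the other groups lay below it. The changes were -0.23 (SE 0.04, adjusted p = 4.93e-05), -0.14 (SE 0.05, adjusted p = 0.0179) and -0.17 (SE 0.04, adjusted p = 0.00118). FK506 0.6 mg/kg, from 12.52 to 12.63 (median 12.56, n = 6), gave -0.17 (SE 0.04, adjusted p = 0.00531), lost without quantile normalization (-0.12, adjusted p = 0.108). Rapa 1 mg/kg, from 12.49 to 12.64 (median 12.58, n = 6), gave -0.17 (SE 0.04, adjusted p = 0.00297). The CsA call was lost without vehicle replicate 5 (-0.13, adjusted p = 0.0511) or CsA 25 mg/kg replicate 4 (-0.11, adjusted p = 0.112). At day 14 Pgam1 fell by 0.15 (SE 0.05, adjusted p = 0.0385) under Rapa 1 mg/kg, lost without any 1 of vehicle replicates 2, 3 or 4 or Rapa 1 mg/kg replicates 2, 3 or 4, with changes from -0.18 to -0.12 over the rats left out in turn.

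Ldhb (1370218_at), the heart-type subunit of lactate dehydrogenase, was also lower in 6 comparisons. At day 28 it read 13.37, 13.24, 13.29, 13.26 and 13.31 in vehicle and 13.08, 13.04, 12.93 and 13.10 under CsA 25 mg/kg, and ran from 12.94 to 13.18 (median 13.06, n = 6) under Rapa 10 mg/kg. Neither group overlapped vehicle, and the changes, -0.25 (SE 0.07, adjusted p = 0.00636) and -0.23 (SE 0.07, adjusted p = 0.00908), were kept in every setting run. At day 14 vehicle read 13.21, 13.29, 13.31 and 13.25, CsA 25 mg/kg 12.97, 12.94, 12.87 and 13.05 and Rapa 1 mg/kg 13.15, 12.66, 12.79 and 13.11. These groups did not overlap vehicle either, at -0.31 (SE 0.08, adjusted p = 0.00486) and -0.34 (SE 0.08, adjusted p = 0.0019). The CsA call was lost with only the arrays of the days compared (-0.31, adjusted p = 0.052), and the Rapa call was kept in every setting run. Rapa 10 mg/kg at day 14 gave -0.23 (SE 0.08, adjusted p = 0.0399), lost without any 1 of vehicle replicates 2, 3 or 4 or Rapa 10 mg/kg replicates 2, 3 or 4, with changes from -0.30 to -0.19 over the rats left out in turn. Rapa 1 mg/kg at day 28 gave -0.19 (SE 0.07, adjusted p = 0.042), lost without any 1 of vehicle replicates 1, 2, 3, 4 or 5 or Rapa 1 mg/kg replicates 2, 3, 5 or 6, with changes from -0.23 to -0.16 over the rats left out in turn.

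Ldha (1367586_at), the muscle-type subunit of lactate dehydrogenase, rose under the calcineurin inhibitors. At day 28 vehicle read 11.08, 10.96, 11.08, 11.20 and 11.36, CsA 25 mg/kg 11.36, 11.43, 11.29 and 11.54 and FK506 6 mg/kg 11.47, 11.33, 11.80, 11.27 and 11.21. Both groups overlapped vehicle. The changes were 0.27 (SE 0.09, adjusted p = 0.0294) and 0.28 (SE 0.09, adjusted p = 0.0199). The CsA call was lost without quantile normalization (0.19, adjusted p = 0.161) and without any 1 of vehicle replicates 1, 2 or 3 or CsA 25 mg/kg replicates 2 or 4, with changes from 0.22 to 0.32 over the rats left out in turn. The FK506 call was lost without vehicle replicate 2 (0.24, adjusted p = 0.0849) or FK506 6 mg/kg replicate 3 (0.18, adjusted p = 0.179).

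Eno1 (enolase 1, 1367575_at) read 13.10, 13.11, 13.26, 13.14 and 13.11 in vehicle at day 28 and 12.96, 12.97, 12.77, 12.99 and 12.80 under FK506 6 mg/kg, and ran from 12.72 to 13.00 (median 12.86, n = 6) under Rapa 10 mg/kg. Both groups lay below vehicle. The changes were -0.24 (SE 0.07, adjusted p = 0.0124) and -0.29 (SE 0.07, adjusted p = 0.00142). The first was lost without FK506 6 mg/kg replicate 3 (-0.21, adjusted p = 0.0527) and with the hybridization control level as a covariate (-0.21, adjusted p = 0.143), and the second was kept in every setting run. Pgk1 (phosphoglycerate kinase) and Eno3 (muscle enolase) had no call, with changes of -0.61 to 0.54 and -0.32 to 0.67.

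Pyruvate dehydrogenase carries pyruvate toward the citric acid cycle, and both of its E1 subunits were lower under CsA 25 mg/kg at day 28. Pdhb (1371388_at) read 11.85, 11.69, 11.76, 11.78 and 11.63 in vehicle, 11.56, 11.58, 11.55 and 11.36 under CsA 25 mg/kg and 11.53, 11.53, 11.56, 11.51 and 11.56 under FK506 6 mg/kg. Neither group overlapped vehicle. The changes were -0.23 (SE 0.07, adjusted p = 0.0164) and -0.20 (SE 0.07, adjusted p = 0.0343). The CsA call was lost without vehicle replicate 1 (-0.20, adjusted p = 0.0546) or CsA 25 mg/kg replicate 4 (-0.18, adjusted p = 0.118). The FK506 call was lost with the hybridization control level as a covariate (-0.18, adjusted p = 0.204) and without any 1 of vehicle replicates 1, 3 or 4 or FK506 6 mg/kg replicates 1, 2 or 4, with changes from -0.23 to -0.17 over the rats left out in turn. At day 7 Pdhb read 11.73, 11.56, 11.60 and 11.19 under FK506 6 mg/kg and 11.76, 12.11, 11.76 and 11.82 in vehicle, a change of -0.34 (SE 0.08, adjusted p = 0.00461) lost without vehicle replicate 2 (-0.26, adjusted p = 0.061) or FK506 6 mg/kg replicate 4 (-0.23, adjusted p = 0.108). Pdha1 fell by 0.15 (SE 0.05, adjusted p = 0.0376) under CsA 25 mg/kg at day 28, lost without vehicle replicate 1 (-0.14, adjusted p = 0.0737), vehicle replicate 4 (-0.13, adjusted p = 0.0859) or CsA 25 mg/kg replicate 4 (-0.08, adjusted p = 0.376), and another Pdha1 probe set changed by -0.03. The kinases that switch the complex off, Pdk1 and Pdk2, had no call against vehicle, with changes of -0.26 to 0.28 and -0.23 to 0.17.

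Of the glycogen genes, Pygl (1368674_at), the liver-type glycogen phosphorylase, rose at day 7 under the calcineurin inhibitors. Vehicle read 9.24, 9.39, 9.19 and 9.02, CsA 25 mg/kg 9.63, 9.80, 9.62 and 9.75, FK506 6 mg/kg 9.54, 9.62, 9.93 and 9.75 and FK506 0.6 mg/kg 9.88, 9.91, 9.76 and 9.45. All treated rats lay above all vehicle rats. The changes were 0.49 (SE 0.12, adjusted p = 0.00776), 0.50 (SE 0.12, adjusted p = 0.00786) and 0.54 (SE 0.12, adjusted p = 0.0073). The CsA call was lost without vehicle replicate 4 (0.42, adjusted p = 0.0507), that of FK506 6 mg/kg without vehicle replicate 4 (0.43, adjusted p = 0.0589) or FK506 6 mg/kg replicate 3 (0.42, adjusted p = 0.0546), and that of FK506 0.6 mg/kg without vehicle replicate 4 (0.47, adjusted p = 0.0501). The Gapdh ratio moved beside these calls, at 0.72 in vehicle and 0.43, 0.44 and 0.44 in the treated groups, and all 3 were kept with it as a covariate. CsA 2.5 mg/kg, with a ratio of 0.79, read 9.49, 9.63, 9.60 and 9.28 and was not called, at 0.29 (SE 0.12, adjusted p = 0.525). Rapa 10 mg/kg and Rapa 1 mg/kg gave 0.01 (SE 0.12, adjusted p = 0.965) and 0.07 (SE 0.12, adjusted p = 0.843) on that day. Gys1 (muscle-type glycogen synthase) fell by 0.40 (SE 0.13, adjusted p = 0.0431) under CsA 25 mg/kg at day 14, lost without any 1 of vehicle replicates 2 or 3 or CsA 25 mg/kg replicates 1 or 2, with changes from -0.49 to -0.32 over the rats left out in turn. Pgm1 (phosphoglucomutase) fell by 0.21 (SE 0.07, adjusted p = 0.0303) under CsA 25 mg/kg at day 28, lost without any 1 of vehicle replicates 1, 2 or 5 or CsA 25 mg/kg replicates 2, 3 or 4, with changes from -0.32 to -0.11 over the rats left out in turn. Pygb, the brain-type phosphorylase, had no call and moved by -0.12 to 0.30.

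Of the pentose phosphate enzymes, Taldo1 (transaldolase, 1369940_at) was higher in its 6 calls and Tkt (transketolase, 1386859_at) lower in its 2. Taldo1 at day 14 read 11.35, 11.15, 10.99 and 11.16 in vehicle, 11.42, 11.46, 11.45 and 11.45 under Rapa 10 mg/kg, 11.41, 11.36 and 11.51 under FK506 6 mg/kg and 11.30, 11.36, 11.33 and 11.58 under Rapa 1 mg/kg. The vehicle mean, 11.16, was the lowest of the 28 groups, and Rapa 10 mg/kg and FK506 6 mg/kg did not overlap it. The changes were 0.28 (SE 0.06, adjusted p = 0.000527), 0.26 (SE 0.06, adjusted p = 0.0105) and 0.23 (SE 0.06, adjusted p = 0.00575). The first was kept in every setting run, the second was lost without vehicle replicate 3 (0.21, adjusted p = 0.074) or FK506 6 mg/kg replicate 3 (0.22, adjusted p = 0.0836), and the third without vehicle replicate 3 (0.17, adjusted p = 0.0762) or Rapa 1 mg/kg replicate 4 (0.17, adjusted p = 0.086).

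At day 28 Taldo1 read 11.24, 11.20, 11.26, 11.13 and 11.27 in vehicle, 11.43, 11.22, 11.33 and 11.55 under CsA 25 mg/kg and 11.47, 11.40, 11.39, 11.52 and 11.33 under FK506 6 mg/kg, and ran from 11.34 to 11.45 (median 11.38, n = 6) under Rapa 10 mg/kg. FK506 6 mg/kg and Rapa 10 mg/kg lay above all vehicle rats. The changes were 0.16 (SE 0.06, adjusted p = 0.0286), 0.20 (SE 0.05, adjusted p = 0.00389) and 0.17 (SE 0.05, adjusted p = 0.0111). The CsA call was lost without any 1 of vehicle replicates 2 or 4 or CsA 25 mg/kg replicates 1 or 4, with changes from 0.11 to 0.22 over the rats left out in turn. The FK506 call was lost with the hybridization control level as a covariate (0.18, adjusted p = 0.063) and the Rapa call without quantile normalization (0.12, adjusted p = 0.122). Tkt read 11.09, 11.11, 11.34, 11.16 and 11.05 in vehicle and ran from 10.65 to 10.98 (median 10.87, n = 6) under Rapa 10 mg/kg and from 10.80 to 11.09 (median 10.93, n = 6) under Rapa 1 mg/kg. The former did not overlap vehicle and the latter did. The changes were -0.30 (SE 0.07, adjusted p = 0.00217) and -0.23 (SE 0.07, adjusted p = 0.0338), and the second was lost without any 1 of vehicle replicates 2, 3 or 4 or Rapa 1 mg/kg replicates 1, 3 or 4, with changes from -0.26 to -0.18 over the rats left out in turn.

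The drugs were also compared directly at the higher doses. FK506 and Rapa are macrolides that bind the same intracellular protein, and CsA is a cyclic peptide. At day 28, FK506 6 mg/kg was higher than Rapa 10 mg/kg in 7 members and lower in none, beside 10.9% of all genes called. The differences were 0.78 (SE 0.16, adjusted p = 0.00028) for Slc2a2, 0.68 (SE 0.19, adjusted p = 0.00809) for Slc5a1, 0.43 (SE 0.09, adjusted p = 0.000166) for Ldha and 0.41 (SE 0.12, adjusted p = 0.0117) for Pc. They were 0.37 (SE 0.10, adjusted p = 0.00912) for Pygl, 0.32 (SE 0.06, adjusted p = 6e-05) for Gpi and 0.23 (SE 0.05, adjusted p = 0.00153) for Aldoa. Gpi, Aldoa and Ldha did not overlap between the groups. Slc2a2, Gpi and Ldha were kept in every setting run. Slc5a1 was lost without FK506 6 mg/kg replicate 3 (0.54, adjusted p = 0.0599), Pc without FK506 6 mg/kg replicate 1 (0.35, adjusted p = 0.0608) or FK506 6 mg/kg replicate 2 (0.31, adjusted p = 0.0901), and Pygl without FK506 6 mg/kg replicate 1 (0.30, adjusted p = 0.0664). Aldoa was lost with the hybridization control level as a covariate (0.12, adjusted p = 0.382).

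CsA 25 mg/kg was higher than Rapa 10 mg/kg at day 28 in 6 members and lower in 2, beside 19.9% of all genes. Slc2a2 differed by 1.04 (SE 0.17, adjusted p = 2.68e-06), a fold of 2.06 without overlap. Pc differed by 0.72 (SE 0.13, adjusted p = 9.89e-06), Slc5a1 by 0.67 (SE 0.20, adjusted p = 0.00855), Ldha by 0.42 (SE 0.09, adjusted p = 0.000295), Pygl by 0.39 (SE 0.11, adjusted p = 0.00667) and Aldoa by 0.16 (SE 0.06, adjusted p = 0.0364). Pfkm, at -0.24 (SE 0.09, adjusted p = 0.0361), and Pdha1, at -0.20 (SE 0.05, adjusted p = 0.00235), were lower under CsA. Slc2a2, Pc, Ldha and Pygl were kept in every setting run. Slc5a1 was lost without CsA 25 mg/kg replicate 2 (0.58, adjusted p = 0.0515), and Pdha1 without CsA 25 mg/kg replicate 4 (-0.14, adjusted p = 0.0736). Without the array with zeros Aldoa gave 0.10, adjusted p = 0.296, and Pfkm -0.25, adjusted p = 0.0773.

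**Figure D3:**
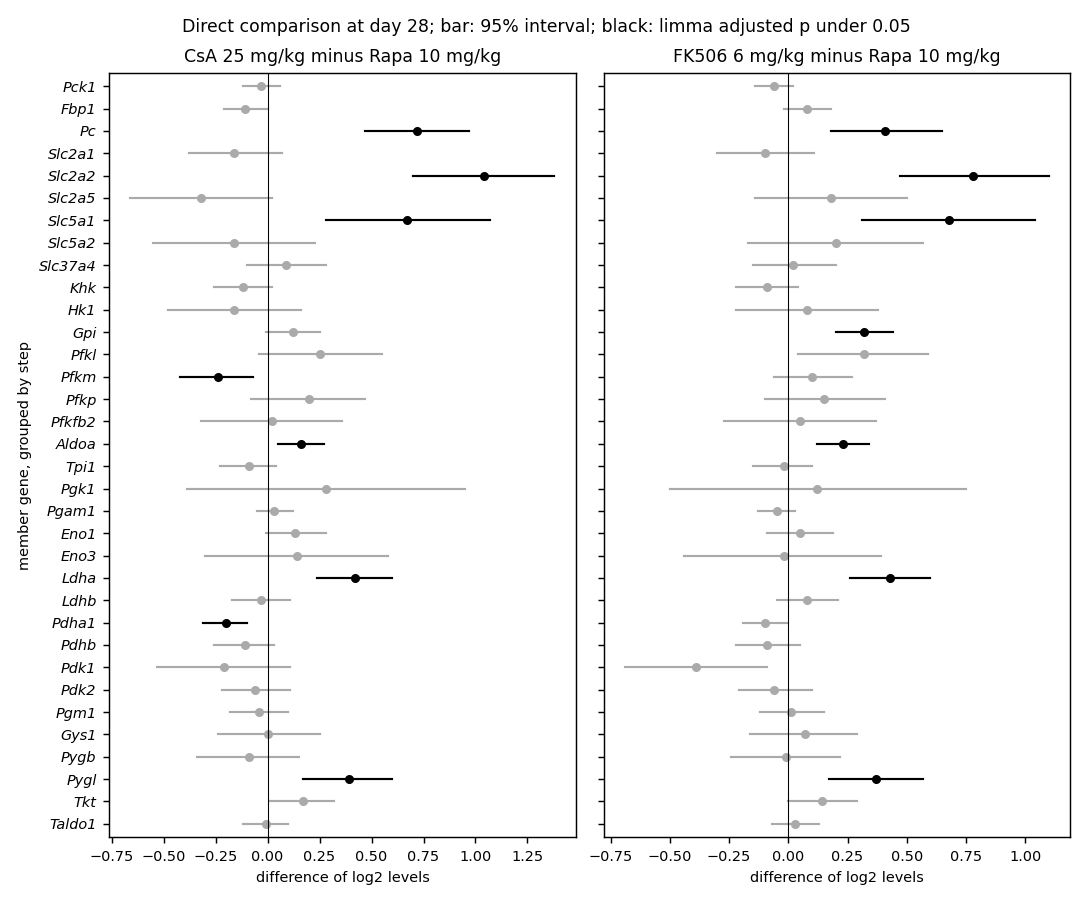
Difference of log2 levels at day 28 for each tested member, CsA 25 mg/kg minus Rapa 10 mg/kg (left) and FK506 6 mg/kg minus Rapa 10 mg/kg (right). Points are differences, bars their 95% intervals, and black marks an adjusted p under 0.05. Slc2a2 lies at 1.04 and 0.78, higher than any other member in both panels.

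Differences from Rapa were present before day 28. At day 14 CsA 25 mg/kg exceeded Rapa 10 mg/kg in Slc5a1 at 1.01 (SE 0.22, adjusted p = 0.000352), Slc2a2 at 0.84 (SE 0.19, adjusted p = 0.000683) and Pc at 0.47 (SE 0.14, adjusted p = 0.0117), and was lower in Pdk2 at -0.28 (SE 0.09, adjusted p = 0.0249), beside 14.7% of all genes. Slc5a1 and Slc2a2 were kept in every setting run. Pc was lost without CsA 25 mg/kg replicate 1 (0.42, adjusted p = 0.053) or Rapa 10 mg/kg replicate 1 (0.41, adjusted p = 0.0529), and Pdk2 without CsA 25 mg/kg replicate 3 (-0.25, adjusted p = 0.0793), Rapa 10 mg/kg replicate 3 (-0.25, adjusted p = 0.08) or Rapa 10 mg/kg replicate 4 (-0.23, adjusted p = 0.1). At day 14 FK506 6 mg/kg exceeded Rapa 10 mg/kg in Slc5a1 at 0.90 (SE 0.23, adjusted p = 0.00609) and Slc5a2 at 0.76 (SE 0.23, adjusted p = 0.0251), beside 9.49%. The first was lost without FK506 6 mg/kg replicate 1 (0.66, adjusted p = 0.144) or Rapa 10 mg/kg replicate 3 (0.73, adjusted p = 0.0563), and the second without FK506 6 mg/kg replicate 1 (0.66, adjusted p = 0.147), FK506 6 mg/kg replicate 3 (0.66, adjusted p = 0.115) or Rapa 10 mg/kg replicate 4 (0.73, adjusted p = 0.0576).

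At day 7 CsA 25 mg/kg exceeded Rapa 10 mg/kg in Pc at 0.66 (SE 0.14, adjusted p = 0.000462) and Pygl at 0.47 (SE 0.12, adjusted p = 0.00462) and was lower in Pdk2 at -0.33 (SE 0.09, adjusted p = 0.00904), beside 9.44% of all genes. Pc was kept in every setting run, Pygl was lost without Rapa 10 mg/kg replicate 2 (0.38, adjusted p = 0.054), and Pdk2 without CsA 25 mg/kg replicate 4 (-0.27, adjusted p = 0.0697). On that day FK506 6 mg/kg exceeded Rapa 10 mg/kg in Pygl at 0.48 (SE 0.12, adjusted p = 0.00562) and Tkt at 0.28 (SE 0.09, adjusted p = 0.031), beside 6.43%. Pygl was lost without Rapa 10 mg/kg replicate 2 (0.39, adjusted p = 0.0632), and Tkt without any 1 of FK506 6 mg/kg replicates 1, 2 or 3 or Rapa 10 mg/kg replicates 2, 3 or 4, with changes from 0.24 to 0.34 over the rats left out in turn. At day 1 CsA 25 mg/kg was higher in Ldha at 0.46 (SE 0.10, adjusted p = 0.000925) and Pygl at 0.54 (SE 0.12, adjusted p = 0.00151) and lower in Pfkl at -0.73 (SE 0.16, adjusted p = 0.00142), beside 6.58%. Pfkl was lost with the Gapdh ratio as a covariate (-0.45, adjusted p = 0.177), a ratio of 0.36 in CsA 25 mg/kg and 0.74 in Rapa 10 mg/kg. CsA 25 mg/kg replicates 3 and 4 at day 1 had log2 levels of Alb, a liver marker, of 14.49 and 14.38. Without the arrays of high Alb, Ldha gave 0.19, adjusted p = 0.485, and Pygl 0.35, adjusted p = 0.26. FK506 6 mg/kg differed from Rapa 10 mg/kg in no member at day 1 (1.63% of all genes, and 7 members at an unadjusted limma p under 0.05).

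CsA 25 mg/kg and FK506 6 mg/kg differed in 2 members at day 28, beside 5.67% of all genes. CsA was lower in Pfkm at -0.35 (SE 0.09, adjusted p = 0.0102) and Fbp1 at -0.19 (SE 0.05, adjusted p = 0.0199). Pfkm was lost without CsA 25 mg/kg replicate 2 (-0.27, adjusted p = 0.0974), and Fbp1 without CsA 25 mg/kg replicate 4 (-0.10, adjusted p = 0.379), FK506 6 mg/kg replicate 1 (-0.17, adjusted p = 0.0762) or FK506 6 mg/kg replicate 5 (-0.17, adjusted p = 0.0625). The difference was -0.03 (95% interval -0.17 to 0.12) for Khk, -0.01 (95% interval -0.20 to 0.18) for Ldha, 0.00 (95% interval -0.41 to 0.40) for Slc5a1 and 0.26 (95% interval -0.10 to 0.61) for Slc2a2, none of them called. At day 7 CsA exceeded FK506 in Pdhb at 0.40 (SE 0.08, adjusted p = 0.000988), beside 0.938%, lost without FK506 6 mg/kg replicate 4 (0.29, adjusted p = 0.062). At day 14 it was higher in Pfkfb2 at 0.72 (SE 0.20, adjusted p = 0.0358) and lower in Eno3 at -0.94 (SE 0.26, adjusted p = 0.0358), beside 1.97%. Pfkfb2 was lost without any 1 of CsA 25 mg/kg replicates 1, 3 or 4 or FK506 6 mg/kg replicates 1 or 2, with changes from 0.54 to 0.89 over the rats left out in turn, and Eno3 without any 1 of CsA 25 mg/kg replicates 1, 3 or 4 or FK506 6 mg/kg replicate 1, with changes from -1.22 to -0.53 over the rats left out in turn. At day 1 none was called (0.694% of all genes, and 5 members at an unadjusted limma p under 0.05).

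Between doses at day 28, CsA 25 mg/kg differed from CsA 2.5 mg/kg in 10 members, 2 higher and 8 lower, beside 18.4% of all genes. Higher were Slc2a2 at 0.55 (SE 0.18, adjusted p = 0.021) and Taldo1 at 0.16 (SE 0.06, adjusted p = 0.0335). Lower were Khk at -0.45 (SE 0.07, adjusted p = 2.22e-06), Pfkm at -0.39 (SE 0.09, adjusted p = 0.00108), Pgm1 at -0.29 (SE 0.07, adjusted p = 0.00283) and Ldhb at -0.28 (SE 0.07, adjusted p = 0.00278). Pdha1, at -0.26 (SE 0.05, adjusted p = 0.000273), Pdhb (-0.21), Fbp1 (-0.20) and Gpi (-0.19) were lower as well. Khk, Pfkm, Ldhb and Pdha1 were kept in every setting run. Slc2a2 was lost without CsA 25 mg/kg replicate 2 (0.42, adjusted p = 0.135) or CsA 25 mg/kg replicate 3 (0.48, adjusted p = 0.094), Gpi without CsA 25 mg/kg replicate 1 (-0.19, adjusted p = 0.0555) or CsA 25 mg/kg replicate 3 (-0.14, adjusted p = 0.206), and Taldo1 without CsA 25 mg/kg replicate 1 (0.14, adjusted p = 0.0877) or CsA 25 mg/kg replicate 4 (0.10, adjusted p = 0.272). Fbp1 was lost without CsA 25 mg/kg replicate 4 (-0.11, adjusted p = 0.198), Pdhb without CsA 25 mg/kg replicate 4 (-0.16, adjusted p = 0.175), and Pgm1 without CsA 25 mg/kg replicate 2 (-0.19, adjusted p = 0.0763).

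FK506 6 mg/kg differed from 0.6 mg/kg in Khk, at -0.29 (SE 0.07, adjusted p = 0.00812) without overlap, beside 1.59% of all genes. It was lost without FK506 6 mg/kg replicate 3 (-0.21, adjusted p = 0.131) and with the hybridization control level as a covariate (-0.30, adjusted p = 0.0587). Rapa 10 mg/kg differed from 1 mg/kg in Eno1, at -0.30 (SE 0.07, adjusted p = 0.0454), beside 0.122%, a call lost without any 1 of Rapa 1 mg/kg replicates 2, 3 or 6 or Rapa 10 mg/kg replicates 3, 5 or 6, with changes from -0.40 to -0.27 over the rats left out in turn. Between the Rapa doses Slc5a1 differed by -0.35 (95% interval -0.70 to 0.00), Pc by -0.07 (95% interval -0.29 to 0.16) and Slc2a2 by -0.08 (95% interval -0.39 to 0.22), none of them called.

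**Figure D4:**
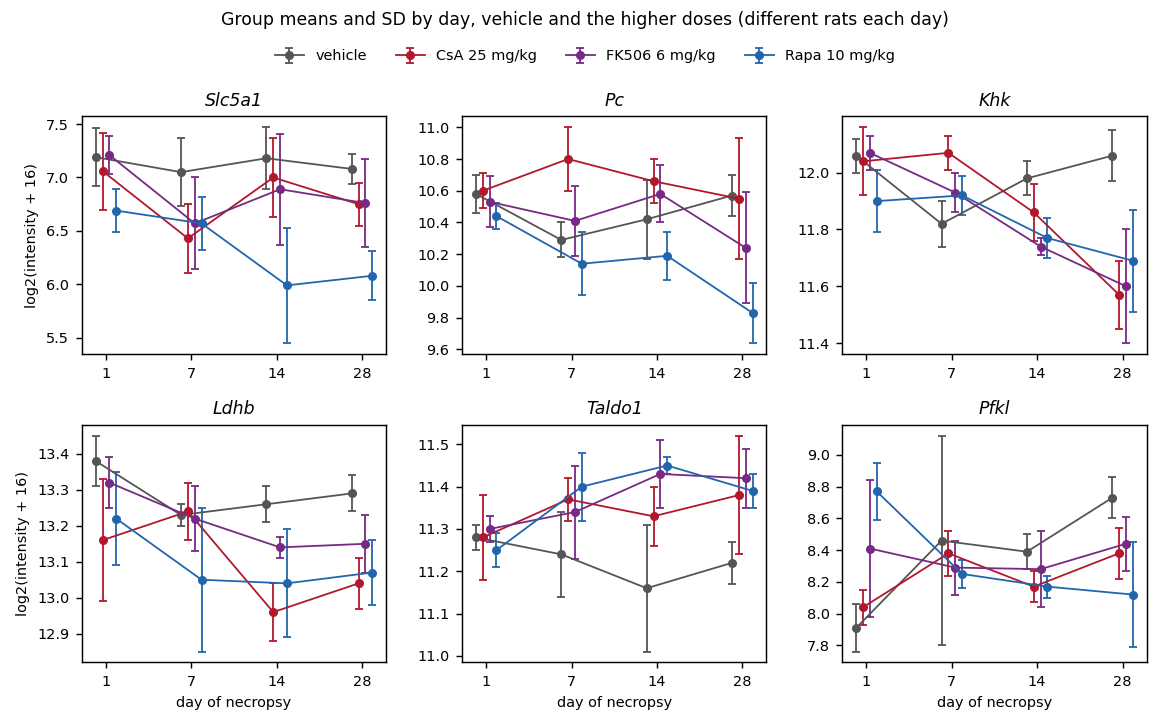
Group means and SD of 6 members, log2(intensity + 16), by day of necropsy on an axis with equal steps between days 1, 7, 14 and 28, for vehicle and the higher dose of each drug. Khk was 12.06 in vehicle at day 28 and 11.57, 11.60 and 11.69 under CsA, FK506 and Rapa, and Pfkl in vehicle was 7.91 at day 1 and 8.73 at day 28.

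Whether the effect of a higher dose differed between day 28 and day 1 was tested as an interaction. For Khk it was -0.47 (SE 0.11, adjusted p = 0.00298) under CsA 25 mg/kg and -0.47 (SE 0.10, adjusted p = 0.00376) under FK506 6 mg/kg, where the effects at day 1 were -0.02 and 0.01. Khk was the 1 member called for CsA (4.92% of all genes), and FK506 (3.31%) also had Pfkl, at -0.79 (SE 0.22, adjusted p = 0.0224). Under Rapa 10 mg/kg (5.51%) the members were Pfkl, at -1.46 (SE 0.21, adjusted p = 1.04e-06), and Pc, at -0.61 (SE 0.18, adjusted p = 0.0291). Pfkl in vehicle itself moved, from 7.91 at day 1, the lowest of the 28 groups, to 8.73 at day 28. Against vehicle, Pfkl was called on neither day under FK506 6 mg/kg, and on both days under Rapa 10 mg/kg, in opposite directions. The interaction values of Khk and that of Pfkl under Rapa were kept in every setting run. Pfkl under FK506 was lost without vehicle day 1 replicate 4 (-0.75, adjusted p = 0.0552), FK506 6 mg/kg day 1 replicate 4 (-0.58, adjusted p = 0.132) or FK506 6 mg/kg day 28 replicate 4 (-0.73, adjusted p = 0.0505), and Pc without any 1 of vehicle day 1 replicates 1 or 4 or Rapa 10 mg/kg day 1 replicates 1 or 2 or vehicle day 28 replicates 1 or 2 or Rapa 10 mg/kg day 28 replicate 1, with changes from -0.66 to -0.56 over the rats left out in turn.

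In vehicle alone, Pfkl was higher at day 28 than at day 1, at 0.82 (SE 0.15, adjusted p = 0.000456), beside 2.08% of all genes, and was the 1 member called. At day 7 Pfkl was higher, at 0.56 (SE 0.16, adjusted p = 0.029), and Tpi1 lower, at -0.29 (SE 0.08, adjusted p = 0.0111), beside 3.85%. With the Gapdh ratio as a covariate these day 7 values were 0.27, adjusted p = 0.47, and -0.19, adjusted p = 0.226. Pfkl at day 7 was lost without any 1 of vehicle day 1 replicates 1, 3 or 4 or vehicle day 7 replicates 1, 3 or 4, with changes from 0.36 to 0.87 over the rats left out in turn, and Tpi1 without vehicle day 7 replicate 4 (-0.22, adjusted p = 0.114). At day 14 none was called (0.403% of all genes, and 4 members at an unadjusted limma p under 0.05).

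Some of these calls were also lost under settings not named beside them. Without quantile normalization, the losses against vehicle were Khk and Tpi1 for CsA 25 mg/kg at day 7, Pfkm and Gys1 for CsA 25 mg/kg at day 14, Slc2a2 and Taldo1 for CsA 25 mg/kg at day 28, Tpi1 for FK506 6 mg/kg at day 7, Fbp1 for Rapa 10 mg/kg at day 14 and Ldhb for Rapa 1 mg/kg at day 28 (adjusted p from 0.0516 to 0.461). Between other groups that setting lost Pfkfb2 for CsA 25 mg/kg against FK506 6 mg/kg at day 14, Aldoa for CsA 25 mg/kg against Rapa 10 mg/kg at day 28, Slc2a2 and Taldo1 for CsA 25 mg/kg against CsA 2.5 mg/kg at day 28 and Eno1 for Rapa 10 mg/kg against Rapa 1 mg/kg at day 28 (adjusted p from 0.0533 to 0.422). With the Gapdh ratio as a covariate, the losses against vehicle were Khk for CsA 25 mg/kg at day 7, Pfkm and Gys1 for CsA 25 mg/kg at day 14 and Pgam1 for Rapa 1 mg/kg at day 14 (adjusted p from 0.0531 to 0.113). Between other groups that setting lost Pfkm for CsA 25 mg/kg against Rapa 10 mg/kg at day 28, Pfkl for FK506 6 mg/kg from day 1 to day 28 and Pc for Rapa 10 mg/kg from day 1 to day 28 (adjusted p from 0.0563 to 0.0581). With the hybridization control level as a covariate, the losses against vehicle were Khk for CsA 25 mg/kg at day 7 and Ldhb and Tkt for Rapa 1 mg/kg at day 28 (adjusted p from 0.0513 to 0.175). Between other groups that setting lost Fbp1 and Pfkm for CsA 25 mg/kg against FK506 6 mg/kg at day 28, Eno1 for Rapa 10 mg/kg against Rapa 1 mg/kg at day 28 and Pfkl for FK506 6 mg/kg from day 1 to day 28 (adjusted p from 0.055 to 0.229). With dim genes kept, the losses against vehicle were Khk for CsA 25 mg/kg at day 7, Gys1 for CsA 25 mg/kg at day 14, Tpi1 and Pdha1 for CsA 25 mg/kg at day 28, Tpi1 for FK506 6 mg/kg at day 7, Slc2a2 for Rapa 10 mg/kg at day 7, Ldhb for Rapa 10 mg/kg at day 14, Pgam1 for Rapa 1 mg/kg at day 14 and Ldhb for Rapa 1 mg/kg at day 28 (adjusted p from 0.0509 to 0.0673). Between other groups that setting lost Eno1 for Rapa 10 mg/kg against Rapa 1 mg/kg at day 28 (adjusted p = 0.0568). With only the arrays of the days compared, the losses against vehicle were Tpi1 for CsA 25 mg/kg at day 7, Pfkm and Gys1 for CsA 25 mg/kg at day 14, Fbp1, Slc2a2, Tpi1, Pgam1, Ldha, Pdha1, Pgm1 and Taldo1 for CsA 25 mg/kg at day 28, Tpi1 and Pdhb for FK506 6 mg/kg at day 7, Pfkfb2 and Taldo1 for FK506 6 mg/kg at day 14, Eno1 and Pdhb for FK506 6 mg/kg at day 28, Fbp1, Gpi and Ldhb for Rapa 10 mg/kg at day 14, Slc2a1 for Rapa 10 mg/kg at day 28, Aldoa for Rapa 1 mg/kg at day 7, Gpi and Pgam1 for Rapa 1 mg/kg at day 14 and Slc2a1 and Tkt for Rapa 1 mg/kg at day 28 (adjusted p from 0.0522 to 0.165). Between other groups that setting lost Pfkfb2 and Eno3 for CsA 25 mg/kg against FK506 6 mg/kg at day 14, Fbp1 and Pfkm for CsA 25 mg/kg against FK506 6 mg/kg at day 28, Tkt for FK506 6 mg/kg against Rapa 10 mg/kg at day 7, Slc5a1 and Slc5a2 for FK506 6 mg/kg against Rapa 10 mg/kg at day 14, Pc for FK506 6 mg/kg against Rapa 10 mg/kg at day 28, Pdk2 for CsA 25 mg/kg against Rapa 10 mg/kg at day 14, Pfkm, Aldoa and Pdha1 for CsA 25 mg/kg against Rapa 10 mg/kg at day 28, Fbp1, Gpi, Pdhb and Taldo1 for CsA 25 mg/kg against CsA 2.5 mg/kg at day 28, Khk for FK506 6 mg/kg against FK506 0.6 mg/kg at day 28, Eno1 for Rapa 10 mg/kg against Rapa 1 mg/kg at day 28 and Pfkl for vehicle day 7 against vehicle day 1 (adjusted p from 0.0506 to 0.409). Without the arrays of high Alb, the loss was Taldo1 for CsA 25 mg/kg against CsA 2.5 mg/kg at day 28 (adjusted p = 0.0714).

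Genes of the same pathways outside the 38 were taken from a list of 52, of which 41 were on the array and 34 were tested. At day 28, 4 were higher and 10 lower under CsA 25 mg/kg (beside 21.1% of all genes called), 2 and 11 under FK506 6 mg/kg (16%), 0 and 8 under Rapa 10 mg/kg (15.8%), and 0 and 6 under Rapa 1 mg/kg (9.79%). Pklr, the liver-type pyruvate kinase, fell by 1.43 (SE 0.22, adjusted p = 3.65e-07), 1.50 (SE 0.20, adjusted p = 4.62e-08) and 1.26 (SE 0.20, adjusted p = 8.88e-07) under the higher doses of CsA, FK506 and Rapa. Pfkfb4, another enzyme of the phosphofructokinase activator, fell by 0.76 (SE 0.16, adjusted p = 0.000135), 1.14 (SE 0.15, adjusted p = 1.17e-08) and 1.23 (SE 0.14, adjusted p = 1.62e-10) in that order. Slc16a1, the lactate and pyruvate carrier MCT1, fell by 1.01 (SE 0.33, adjusted p = 0.0198), 1.09 (SE 0.31, adjusted p = 0.0094) and 1.23 (SE 0.30, adjusted p = 0.00178). Akr1b1, the aldose reductase that makes sorbitol, rose by 1.17 (SE 0.36, adjusted p = 0.0114) under CsA. Pdk3 fell by 0.75 (SE 0.12, adjusted p = 2.7e-06) under FK506, and Tkfc, the triokinase that acts after Khk, by 0.74 (SE 0.10, adjusted p = 6.97e-09) under Rapa 10 mg/kg. Neither fall was particular to that drug. Under CsA 25 mg/kg the changes were -0.60 (adjusted p = 0.000288) for Pdk3 and -0.75 (adjusted p = 7.4e-08) for Tkfc. Pdk3 was also called lower under FK506 0.6 mg/kg and Rapa 1 mg/kg. Without the array with zeros the CsA counts were 3 higher and 9 lower, with Akr1b1 at 1.55 (adjusted p = 0.00172) and Slc16a1 at -0.94 (adjusted p = 0.0628).

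Of 25 regulators of glucose genes, 20 were tested. At day 28, 4 were lower under CsA 25 mg/kg (beside 21.1% of all genes), 1 higher and 2 lower under FK506 6 mg/kg (16%), and 3 higher and 1 lower under Rapa 10 mg/kg (15.8%). All 3 counts are near the share of all genes. Gcgr, the glucagon receptor, fell by 1.16 (SE 0.32, adjusted p = 0.00441), 1.92 (SE 0.30, adjusted p = 1.26e-06) and 1.63 (SE 0.29, adjusted p = 1.24e-05) under CsA, FK506 and Rapa. Mlxipl (ChREBP), which senses sugar phosphates, fell by 0.47 (SE 0.17, adjusted p = 0.0356) under CsA and 0.44 (SE 0.16, adjusted p = 0.0456) under FK506. Txnip, an inhibitor of glucose uptake, rose by 0.32 (SE 0.10, adjusted p = 0.0184) under FK506 and 0.35 (SE 0.10, adjusted p = 0.00606) under Rapa. Under Rapa the receptor gene Igf1r rose by 0.32 (SE 0.11, adjusted p = 0.0372) and Epas1, a hypoxia-inducible factor, by 0.21 (SE 0.07, adjusted p = 0.042). Hnf4a and Ppargc1a, at -2.31 and -1.43 under CsA 25 mg/kg, gave -0.27 (adjusted p = 0.00127) and -0.14 (adjusted p = 0.34) without the array with zeros. For the regulators and the other pathway genes no further setting was examined, and no rat was left out in turn.

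Some markers of other cells and of damage were called at day 28 beside these members, and their part in the changes was not tested. Of all genes, 21.1% were called under CsA 25 mg/kg, 16% under FK506 6 mg/kg and 15.8% under Rapa 10 mg/kg. The shares were 9.79% under Rapa 1 mg/kg and 4.34% under FK506 0.6 mg/kg. Counts of liver markers under CsA and of distal nephron markers under Rapa 10 mg/kg were near these shares. The summed intensity of 15 proximal tubule markers was 114000 to 123000 in vehicle, 92600 to 109000 under CsA 25 mg/kg, 104000 to 114000 under FK506 6 mg/kg, 99000 to 105000 under Rapa 10 mg/kg and 100000 to 111000 under Rapa 1 mg/kg. In that order of treatments 6, 3, 5 and 3 of the 15 were lower, and 1 was higher under FK506. The sum of 9 tubular injury markers was 5690 to 8050 in vehicle and 24700 to 33000, 14900 to 35200, 9620 to 13500 and 8790 to 29600 in the same groups, with 8, 8, 1 and 4 higher. The sum of the 11 leukocyte markers on the array was 9650 to 13500 in vehicle and 12000 to 26900, 13100 to 23600, 10700 to 14600 and 10400 to 19800. Of the 9 tested (Cd3e and S100a8 were dim), 7, 5, 1 and 2 were higher, and 2 were lower under Rapa 10 mg/kg. Of 11 distal nephron markers, 3 were lower under CsA and 3 under FK506, and 1 was higher and 1 lower under each Rapa dose. Of 9 tested liver markers, with Apoa1, Apoa2, Cps1, Tat and Ahsg dim, 2 were higher under CsA 25 mg/kg and 2 under FK506 6 mg/kg and none under Rapa, and without the array with zeros the CsA count was 1. Under CsA the 2 were Fga at 2.05 and Fgb at 1.99. The other tested liver markers were not called under CsA and ran from -1.45 (Alb) to 0.31 (Fetub). FK506 0.6 mg/kg had an injury sum of 13600 to 21300 with 6 higher, and 2 proximal tubule and 3 distal nephron markers lower. No marker of any list was at 0.

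Some markers were also called on earlier days where members were called, and their part was not tested either. At day 14 the shares of all genes were 7.89% for CsA 25 mg/kg, 2.69% for FK506 6 mg/kg, 10.4% for Rapa 10 mg/kg and 9.07% for Rapa 1 mg/kg. At day 7 they were 4.01%, 3.17%, 7.32% and 4.21% in that order, and 1.93% for FK506 0.6 mg/kg. At day 14 the injury sum was 6900 to 10700 in vehicle, 20000 to 26100 under CsA 25 mg/kg with 6 of 9 higher, and 18500 to 21100 under FK506 6 mg/kg with 3 higher. The leukocyte sum was 10600 to 13500 in vehicle and 15800 to 19500 under CsA 25 mg/kg, with 5 of the 9 tested markers higher. Of the 9, 1 was higher and 3 lower under Rapa 1 mg/kg and 3 were lower under Rapa 10 mg/kg. The proximal tubule sum was 113000 to 115000 in vehicle, 96200 to 106000 under Rapa 1 mg/kg with 4 of 15 lower, 98000 to 108000 under Rapa 10 mg/kg with 3 lower, and 98900 to 109000 under CsA 25 mg/kg with 2 lower. Of 11 distal nephron markers, 3 were lower at day 14 under CsA 25 mg/kg and 3 under FK506 6 mg/kg. On that day 1 was higher under Rapa 1 mg/kg and 1 lower under Rapa 10 mg/kg. At day 7 the leukocyte sum was 9580 to 14800 in vehicle and 15000 to 17000 under CsA 25 mg/kg, with 4 of the 9 tested markers higher. Of the same 9, 1 was lower under Rapa 1 mg/kg and 2 under Rapa 10 mg/kg. Distal nephron markers were lower on that day in 2 of 11 under CsA 25 mg/kg, 3 under FK506 6 mg/kg and 2 under FK506 0.6 mg/kg. Under Rapa 1 mg/kg 3 were lower and 1 higher, and under Rapa 10 mg/kg 2 were lower and 1 higher.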

How the data were processed

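Kidney RNA of 120 rats was hybridised to Affymetrix rat arrays, 1 array per rat, after one-cycle 3-prime labelling and scanning with the maker's software, per the labels. The deposited values are intensity values on a linear scale; their summarization and scaling are not given in the sources used here. The table held 31099 probe sets, of which 57 were controls; 20826 had 1 gene symbol, 436 several and 9780 none. Here they were quantile normalized over non-control probe sets as log2(deposited intensity + 16), 1 probe set was kept per gene, and the dimmest 25% of genes (3554) were left out. In limma 3.58.1 (R 4.3.3), all 28 groups entered 1 linear model with a mean for each (92 residual degrees of freedom), with Benjamini-Hochberg adjustment over 10663 genes in each of 45 comparisons, at a threshold of 0.05. The procedure was tested on simulated data. Full values went to the members called most often against vehicle, at most 10, and to at most 6 called members with the largest change in each comparison of a higher dose with vehicle. Of other pathway genes at most 4 called per comparison were named, and Pdk3 and Tkfc were added for CsA 25 mg/kg. The members, the gene lists and the tests were chosen with earlier results of these data known. Alternatives were no quantile normalization, an offset of 1, no filter, an intensity trend, covariates for the hybridization controls and the Gapdh ratio, only the days compared, and leaving out the array with zeros, the arrays of high Alb (log2 level above 12) or 1 rat at a time. Promoters came from RefSeq.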

Additional observations from a re-analysis of the deposited data

Results flagged for a closer look

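In Rapa 1 mg/kg at day 28, Pc in replicate 4 read 9.34, below the 9.92 to 10.12 of the other rats, with a gap of 0.75 of the group's range beyond Dixon's 95% limit for 6 values. Of 61 groups examined this way 1 stood out, where chance gives about 1 in 20. Without that rat the Pc change against vehicle was -0.57. The effect of the higher dose differed between day 28 and day 1, by a limma interaction test, for Khk under CsA 25 mg/kg (-0.47, adjusted p = 0.00298) and FK506 6 mg/kg (-0.47, adjusted p = 0.00376). It also differed for Pfkl under FK506 6 mg/kg (-0.79, adjusted p = 0.0224) and Rapa 10 mg/kg (-1.46, adjusted p = 1.04e-06) and for Pc under Rapa 10 mg/kg (-0.61, adjusted p = 0.0291). Pfkl in vehicle itself moved from 7.91 at day 1 to 8.73 at day 28, and under FK506 6 mg/kg it was called against vehicle on neither day. The Gapdh ratio at day 1 was 0.33 in vehicle, 0.41 in FK506 6 mg/kg and 0.74 in Rapa 10 mg/kg, and its part in these values was not tested beyond the covariate fits.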

How the results depend on the processing

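Of the 69 calls against vehicle, 25 kept their direction and call in every setting run, and none of the 123 called pairs of all comparisons reversed. Of the 69, 27 were lost with only the arrays of the days compared, which leaves fewer arrays to estimate the spread, 12 without quantile normalization, 10 with the Gapdh ratio, 9 with dim genes kept, 8 with the hybridization control level, and none with an offset of 1, an intensity trend or without the arrays of high Alb. Without quantile normalization, the count went from 0 to 1 for CsA 25 mg/kg against vehicle at day 1, from 1 to 6 for Rapa 10 mg/kg against vehicle at day 7, from 0 to 2 for FK506 0.6 mg/kg against vehicle at day 14, from 1 to 2 for FK506 0.6 mg/kg against vehicle at day 28, Rapa 1 mg/kg against vehicle at day 7, FK506 6 mg/kg against FK506 0.6 mg/kg at day 28 and vehicle day 28 against vehicle day 1, from 2 to 1 for CsA 25 mg/kg against FK506 6 mg/kg at day 14, from 1 to 0 for Rapa 10 mg/kg against Rapa 1 mg/kg at day 28. With the Gapdh ratio as a covariate, the count went from 4 to 2 for CsA 25 mg/kg against vehicle at day 7, from 3 to 1 for CsA 25 mg/kg against vehicle at day 14, from 1 to 0 for Rapa 10 mg/kg against vehicle at day 1, Rapa 1 mg/kg against vehicle at day 1 and Rapa 1 mg/kg against vehicle at day 7, from 2 to 0 for vehicle day 7 against vehicle day 1, from 2 to 1 for FK506 6 mg/kg effect from day 1 to day 28 and for Rapa 10 mg/kg effect from day 1 to day 28. With only the arrays of the days compared in the fit, the count went from 3 to 0 for CsA 25 mg/kg against vehicle at day 14, from 13 to 5 for CsA 25 mg/kg against vehicle at day 28, from 3 to 1 for FK506 6 mg/kg against vehicle at day 7, from 2 to 0 for FK506 6 mg/kg against vehicle at day 14, CsA 25 mg/kg against FK506 6 mg/kg at day 14, CsA 25 mg/kg against FK506 6 mg/kg at day 28 and FK506 6 mg/kg against Rapa 10 mg/kg at day 14, from 6 to 3 for Rapa 10 mg/kg against vehicle at day 14, from 5 to 3 for Rapa 1 mg/kg against vehicle at day 14, from 2 to 1 for FK506 6 mg/kg against Rapa 10 mg/kg at day 7, from 8 to 5 for CsA 25 mg/kg against Rapa 10 mg/kg at day 28, from 10 to 6 for CsA 25 mg/kg against CsA 2.5 mg/kg at day 28, from 1 to 0 for FK506 6 mg/kg against FK506 0.6 mg/kg at day 28 and for Rapa 10 mg/kg against Rapa 1 mg/kg at day 28. With dim genes kept, the count went from 1 to 0 for Rapa 10 mg/kg against vehicle at day 7 and for Rapa 10 mg/kg against Rapa 1 mg/kg at day 28. With an intensity trend, the count went from 0 to 1 for FK506 0.6 mg/kg against vehicle at day 14. With the hybridization control level as a covariate, the count went from 0 to 1 for FK506 0.6 mg/kg against vehicle at day 14, from 8 to 4 for Rapa 1 mg/kg against vehicle at day 28, from 2 to 0 for CsA 25 mg/kg against FK506 6 mg/kg at day 28, from 1 to 0 for FK506 6 mg/kg against FK506 0.6 mg/kg at day 28 and for Rapa 10 mg/kg against Rapa 1 mg/kg at day 28, from 2 to 1 for FK506 6 mg/kg effect from day 1 to day 28. Without the 4 arrays of high Alb, the count went from 1 to 2 for Rapa 1 mg/kg against vehicle at day 7. Leaving out 1 rat at a time (95 fits), the count ran from 0 to 1 for CsA 25 mg/kg against vehicle at day 1, Rapa 1 mg/kg against vehicle at day 7, CsA 25 mg/kg against FK506 6 mg/kg at day 1, CsA 25 mg/kg against FK506 6 mg/kg at day 7, FK506 6 mg/kg against Rapa 10 mg/kg at day 1 and Rapa 10 mg/kg against Rapa 1 mg/kg at day 28, 1 to 4 for CsA 25 mg/kg against vehicle at day 7 and CsA 25 mg/kg against vehicle at day 14, 5 to 13 for CsA 25 mg/kg against vehicle at day 28, 1 to 3 for FK506 6 mg/kg against vehicle at day 7, FK506 0.6 mg/kg against vehicle at day 28, CsA 25 mg/kg against FK506 6 mg/kg at day 28, FK506 6 mg/kg effect from day 1 to day 28 and Rapa 10 mg/kg effect from day 1 to day 28, 1 to 2 for FK506 6 mg/kg against vehicle at day 14, 0 to 4 for Rapa 10 mg/kg against vehicle at day 7, 3 to 5 for Rapa 10 mg/kg against vehicle at day 14, 0 to 3 for FK506 0.6 mg/kg against vehicle at day 7 and FK506 6 mg/kg against Rapa 10 mg/kg at day 14, 3 to 8 for Rapa 1 mg/kg against vehicle at day 14, 5 to 9 for Rapa 1 mg/kg against vehicle at day 28, 0 to 2 for CsA 25 mg/kg against FK506 6 mg/kg at day 14, FK506 6 mg/kg against Rapa 10 mg/kg at day 7, FK506 6 mg/kg against FK506 0.6 mg/kg at day 28 and vehicle day 7 against vehicle day 1. The cause was not tested. Leaving out rats in the groups of 6 was chosen after seeing the data. No paired analysis was possible because the replicate numbers were given in accession order and mark different rats. The number of arrays per group limits the precision.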

Other observations

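Of 3 tested erythroid markers, 2 were higher at day 28 under each Rapa dose and none under CsA 25 mg/kg or FK506 6 mg/kg. The sums of the 4 on the array, which include the dim Ahsp, were 5260 to 9680 under Rapa 10 mg/kg and 3090 to 4320 in vehicle. Of 7 endothelial and stromal markers, 1 was higher and 3 lower under Rapa 10 mg/kg, 1 higher and 2 lower under CsA 25 mg/kg, and 1 higher and 1 lower under FK506 6 mg/kg, and the CsA count of higher markers was 0 without the array with zeros. Of 3 tested adipose markers, 1 was lower under each of these 3 treatments, and of 2 tested skeletal muscle markers 1 was lower under CsA 25 mg/kg and 1 under FK506 6 mg/kg.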
